A study of Mus musculus with 32 samples.

Results

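The CCN genes are a small family of secreted matricellular proteins, and 4 of them, Ccn1, Ccn2, Ccn3 and Ccn5 (older names Cyr61, Ctgf, Nov and Wisp2), were followed by symbol among the 42524 genes of the count table. Ccn5 was chosen by its level in the untreated mice of the earlier age, where it set G93A apart from WT, and the other members for belonging to its family, so that comparison is described here without a test. RNA came from the spinal cord of 32 mice in 8 groups of 4, which cross WT and G93A, untreated and OKN-007, and an earlier and a later age. The labels give the earlier age as 90 days and the study's methods as 95 days, which is used below; the later age is 155 days. G93A mice carry the human SOD1 transgene of B6-Tg(SOD1-G93A)1Gur/J, a model of amyotrophic lateral sclerosis, on the C57BL/6J background, and WT mice of that background lack it; the transgene is under the human promoter and is not confined to neurons. OKN-007 is a nitrone compound given in drinking water, and the dose of the sequenced mice is not stated in the sources used here. In the study's design, sacrifice at both ages belongs to the cohorts on the higher of its doses. Treatment there began before disease onset, or at onset in a further cohort killed at the later age. The comparisons ask how the CCN genes differ between the genotypes at each age and whether treatment changes their levels.

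CCN proteins sit in the extracellular matrix, where they do not build fibres but bind integrins, proteoglycans and growth factors, and so change how a cell reads its surroundings. CCN1 and CCN2 are classical outputs of YAP and TAZ, the Hippo pathway co-activators that act through TEAD factors, and CCN1 is also an immediate early gene and CCN2 a target of TGF-beta. CCN3 is known for opposing CCN2 in several tissues. CCN5 lacks the C-terminal module that the other members carry and is known as an inhibitor of smooth muscle growth and of fibrosis. In the central nervous system the family is best known from reactive glia, vessels and injury.

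In GENCODE M21 (GRCm38), Ccn1 (ENSMUSG00000028195) lies at chr3:145646976-145649981 on the minus strand, Ccn2 (ENSMUSG00000019997) at chr10:24595442-24598683, Ccn3 (ENSMUSG00000037362) at chr15:54745702-54754039 and Ccn5 (ENSMUSG00000027656) at chr2:163820861-163833146, the last 3 on the plus strand. All are protein coding. The longest coding sequences hold 379 codons for Ccn1, 348 for Ccn2, 354 for Ccn3 and 251 for Ccn5, so Ccn5 is the shortest. Ccn2 is overlapped by Gm15270, a processed transcript on the opposite strand. The libraries were made with a kit that keeps strand, but whether the counting used strand is not given in the sources used here, so reads of that transcript may be among those of Ccn2.

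The RefSeq promoter table (GRCm38.p6), with 250 bases before and 50 after each start, held 1 of the 4 members, Ccn1, a member that rose in G93A mice at 155 days. Its sequence, chr3:145649936-145650235 on the minus strand, is shown 5′ to 3′ because no other member was in that table. Capitals mark the reverse complement of the TEAD motif GGAATG, which starts at position -103 from the start, and the TATA box TATAAA, at position -25.
Ccn1: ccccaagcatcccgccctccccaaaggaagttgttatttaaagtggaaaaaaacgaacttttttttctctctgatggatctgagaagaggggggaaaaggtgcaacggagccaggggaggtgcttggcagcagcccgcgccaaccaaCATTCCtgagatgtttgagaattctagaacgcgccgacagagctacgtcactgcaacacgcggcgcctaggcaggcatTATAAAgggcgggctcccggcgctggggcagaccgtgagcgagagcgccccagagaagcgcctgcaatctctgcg
The TEAD motif, searched on both strands, is present in 14.7% of the 32851 promoters of this length, and TATAAA, searched on the coding strand, in 8.32%. The AP-1 motif TGANTCA, searched on both strands, is not in this window and is present in 7.81% of promoters. These matches describe the letters of the window only.

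The total count per mouse ran from 19701722 to 30138257, and 3 counts correspond to at most 0.140 CPM, a limit that covers counting error only. Levels are in CPM, each count divided by the TMM-normalized library size of its mouse. Markers of spinal cord tissue were present in every mouse, with summed levels of 8 neuron genes between 2388 and 5084 CPM and of 8 astrocyte genes between 4618 and 17123 CPM. The untreated WT mouse 3 at 95 days stood apart, with 1374 CPM over 8 Schwann cell markers against 113 to 374 CPM in the other 31 mice. The human transgene was not analysed here. Genes were called at an adjusted p under 0.05 (edgeR's quasi-likelihood test, two-sided, with Benjamini-Hochberg adjustment over all genes tested, 18675 at 155 and 18899 at 95 days). Samples of a group were taken as separate mice, and the labels name no batch, so no comparison within batches was made.

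At 155 days Ccn5 was close to 0 in WT mice and between 10.1 and 41.2 CPM in G93A mice. Its level in the 4 untreated WT mice at that age was 0, 0.255, 0.0777 and 0.131 CPM, from 0, 6, 2 and 4 counts. The 4 untreated G93A mice had 20.6, 17.9, 41.2 and 10.1 CPM, from 550, 435, 1015 and 312 counts. Each G93A mouse thus lay far above each WT mouse. With OKN-007, WT mice had 0.0385, 0.296, 0.0749 and 0.0360 CPM and G93A mice 23.4, 14.1, 21.6 and 17.3 CPM, again without overlap.

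The Ccn5 difference at 155 days was a log2 fold change of 7.61 in untreated mice (SE 0.54, adjusted p = 2.38e-09 by edgeR). In treated mice it was 7.44 (SE 0.54, adjusted p = 2.77e-09 by edgeR). Ccn5 passed the filter on low counts through the G93A mice alone, so these p-values are given as description only. In summed counts the untreated groups gave 2312 against 12 reads, a rate ratio of 192 with a 95% interval of 110 to 372 from counting error only. The treated groups gave 2178 against 12 reads, a ratio of 173 (98.6 to 335). Of the 12 WT reads, 6 came from mouse 2 in the untreated and 8 from mouse 6 in the treated group. Without these mice the log2 fold change of Ccn5 was 8.25 and 8.53. In these comparisons 39.5% of the genes tested were called in untreated mice and 41.5% in treated mice, so a call alone is common at this age. In untreated mice all 4 G93A values lay above all 4 WT values for 15.6% of genes, and in treated mice for 20.2%.

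Ccn1, the immediate early member, was the other CCN gene that was higher in G93A mice at 155 days. Untreated WT mice had 3.69, 3.02, 2.68 and 3.56 CPM, and untreated G93A mice 28.1, 45.8, 89.1 and 22.9 CPM. The lowest G93A mouse was therefore above the highest WT mouse by a wide margin. The log2 fold change was 3.87 (SE 0.42, adjusted p = 6.63e-07 by edgeR), a ratio of group means of 14.3. Under OKN-007 the WT mice had 4.04, 3.18, 9.67 and 2.30 CPM and the G93A mice 36.6, 23.2, 25.9 and 27.7 CPM. These groups did not overlap either, although WT mouse 7 was high for its group, and the log2 fold change was 2.64 (SE 0.40, adjusted p = 3.08e-05), or 3.24 without that mouse.

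Ccn2 showed no such separation in untreated mice. Its level at 155 days was 8.63, 8.73, 9.09 and 9.74 CPM in untreated WT mice and 6.02, 4.77, 16.9 and 7.87 CPM in untreated G93A mice. Apart from G93A mouse 11 at 16.9 CPM, the G93A mice were below the WT mice. The log2 fold change was 0.014 (95% interval -0.57 to 0.60, adjusted p = 0.975 by edgeR), and -0.48 without mouse 11 (adjusted p = 0.0737). In treated mice Ccn2 fell, from 8.69, 8.36, 9.63 and 11.4 CPM in WT to 3.20, 5.50, 6.96 and 5.66 CPM in G93A. All 4 treated G93A mice lay below all 4 treated WT mice, as they did for 25.2% of genes, and the log2 fold change was -0.76 (SE 0.29, adjusted p = 0.0394). This call was lost in 6 of 8 fits that left out 1 mouse, those without WT mouse 5, 7 or 8 or G93A mouse 13, 14 or 16, with adjusted p up to 0.133.

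Ccn2 was set beside a score that may follow the level of the cord sampled. A caudal Hox score, the mean of log2(CPM + 1) over 11 caudal Hox genes that mark position along the body axis, was 3.10 to 3.91 in WT mice at 155 days. It was 1.33, 1.33, 2.94 and 2.91 in untreated and 1.94, 3.09, 2.84 and 2.45 in treated G93A mice, so the genotypes did not overlap in it. With the score as a covariate the log2 fold change of Ccn2 in treated mice was 0.049 (adjusted p = 0.914 by edgeR), and in untreated mice 0.80 (adjusted p = 0.0302). Because the score does not overlap between the genotypes, genotype and what the score follows cannot be told apart for Ccn2 or any other member. Summed motor neuron markers were also lower in these G93A mice. They were at 155 to 175 against 267 to 334 CPM untreated and at 112 to 165 against 309 to 333 CPM treated. Whether the score follows cord level or neuron content was not tested. Leaving out a mouse aside, the lowest log2 fold change between the genotypes at 155 days was 2.60 for Ccn1 and 7.40 for Ccn5. The alternatives behind these values include this covariate, which cannot separate genotype from what the score follows. In bulk tissue, more cells of a type and more RNA per cell cannot be told apart for any of these genes.

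**Figure D1:**
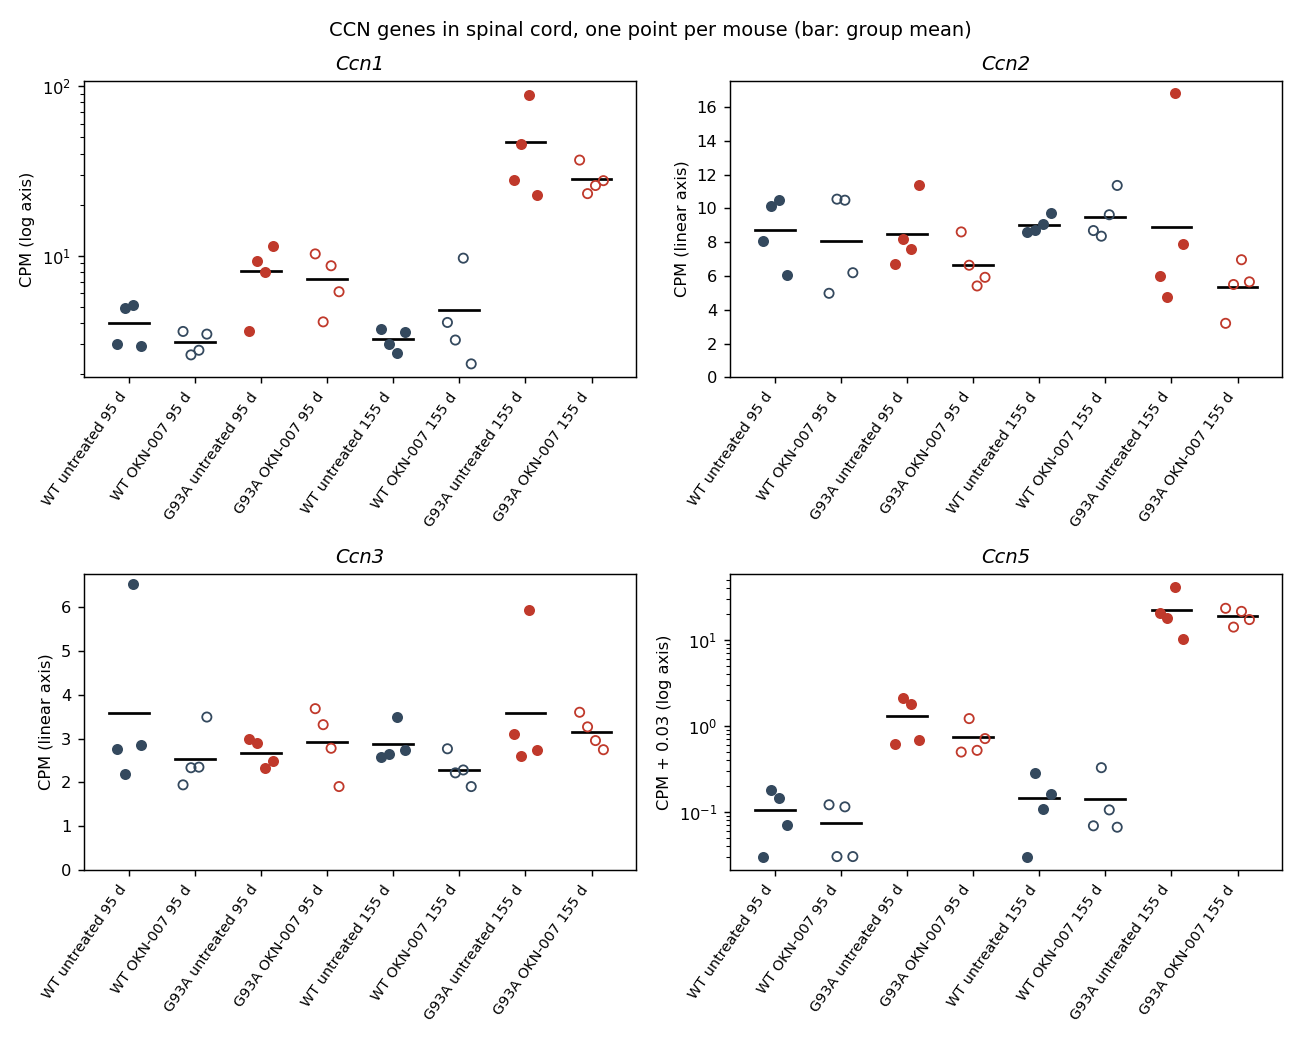
Level of each CCN gene in CPM, 1 point per mouse and 4 mice per group, with a bar at the group mean; filled points are untreated, open points OKN-007, and red marks G93A. The axes of Ccn1 and Ccn5 are logarithmic (0.03 was added to Ccn5 so that zeros show), those of Ccn2 and Ccn3 linear; Ccn1 and Ccn5 of G93A mice at 155 days sit above all other groups, while Ccn2 and Ccn3 overlap across most groups.

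Ccn3, the member known to oppose Ccn2, was called in no comparison. At 155 days it was at 2.59, 2.64, 3.50 and 2.75 CPM in untreated WT mice and at 3.11, 2.59, 5.93 and 2.73 CPM in untreated G93A mice. The values overlapped apart from G93A mouse 11, and the log2 fold change of 0.37 (95% interval -0.10 to 0.84) did not pass the test (adjusted p = 0.208 by edgeR). In treated mice it was at 2.77, 2.22, 2.29 and 1.91 CPM in WT and at 3.60, 3.27, 2.96 and 2.75 CPM in G93A. Of the treated G93A mice, 3 lay above all treated WT mice, and the log2 fold change of 0.53 (95% interval 0.052 to 1.01) missed the threshold (adjusted p = 0.0703).

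The untreated G93A mouse 11 at 155 days was the highest of its group for all 4 members. Its summed microglia markers were also the highest of that group, at 2410 CPM against 1346 to 2172 CPM. Its summed Schwann cell markers were the lowest, at 146 CPM against 164 to 226 CPM. Without this mouse, the untreated comparison gave log2 fold changes of 3.35 for Ccn1 and 7.15 for Ccn5, and that of Ccn3 went from 0.37 to 0.026.

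At 95 days Ccn5 was at or below 2.10 CPM in every mouse. The untreated WT mice had 0, 0.149, 0.113 and 0.0408 CPM of Ccn5 and the untreated G93A mice 0.583, 2.10, 1.76 and 0.655 CPM. These values, with a fitted log2 fold change of 4.00 and 120 against 8 reads in all, are those for which the gene was noticed, and they are given without a test. In the same mice Ccn1 was at 3.02, 4.94, 5.15 and 2.94 CPM in WT and at 3.58, 9.34, 8.05 and 11.3 CPM in G93A, so 3 of 4 G93A mice lay above every WT mouse. Ccn2 had 8.70 ± 2.04 CPM in WT and 8.47 ± 2.05 CPM in G93A mice (SD, n = 4 each). Ccn3 had 2.76, 2.19, 6.53 and 2.86 CPM in WT and 2.99, 2.89, 2.32 and 2.48 CPM in G93A mice. The fitted log2 fold changes were 1.03 for Ccn1, -0.014 for Ccn2 and -0.40 for Ccn3. Of all genes, 0% were called in this comparison, 5.96% had an unadjusted p under 0.05, and all 4 G93A mice were above all 4 WT mice for 0.958%.

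The treated mice at 95 days were other animals than those by which Ccn5 was chosen. The tests were still chosen with earlier results of these data known, and all 16 mice of this age share a dispersion estimate. This comparison is therefore no independent check. Treated WT mice had 0.0905, 0, 0.0839 and 0 CPM of Ccn5, from 4 reads in all. Treated G93A mice had 0.465, 1.19, 0.489 and 0.681 CPM, from 12, 30, 13 and 20 reads. The groups did not overlap, and the summed counts of 75 against 4 gave a rate ratio of 16.5 (95% interval 6.16 to 61.9, counting error only). The log2 fold change of 3.89 (SE 0.79, unadjusted p = 1.09e-04) did not pass after adjustment (adjusted p = 0.9996 by edgeR). Here too Ccn5 passed the filter on low counts through the G93A mice alone. The adjusted p of Ccn5 here was 0.00473 with no filter on low counts, 0.00111 by the likelihood ratio test of edgeR and 0.0416 by DESeq2. In the other 14 alternatives it was not called. These include all 8 fits that left out 1 mouse, with an adjusted p of at least 0.355 by edgeR.

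Ccn1 in the same treated mice was at 3.57, 2.60, 2.77 and 3.45 CPM in WT and at 10.2, 4.07, 8.72 and 6.13 CPM in G93A. All G93A values were above all WT values, as for 1.81% of genes. The log2 fold change of 1.24 (SE 0.32, unadjusted p = 0.00102) failed the correction (adjusted p = 0.9996 by edgeR), and it passed only with no filter on low counts (adjusted p = 0.00473). At this age 0% of genes were called in the treated comparison, and 3.95% had an unadjusted p under 0.05. Ccn2 (log2 fold change -0.28, 95% interval -0.78 to 0.21) and Ccn3 (0.20, -0.42 to 0.83) had an adjusted p of 0.9996 each.

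Ccn5 passed the filter on low counts through the G93A mice alone, since no WT mouse had more than 8 reads. Its p-values are therefore description only in every comparison. All 4 members passed it at both ages.

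The change with age was measured between different mice. In treated G93A mice, Ccn5 rose from 0.705 ± 0.335 CPM at 95 days to 19.1 ± 4.19 CPM at 155 days (SD, n = 4 each), with a fitted log2 fold change of 4.79 (SE 0.42, adjusted p = 1.82e-10 by edgeR), and Ccn1 rose from 7.29 ± 2.74 to 28.4 ± 5.80 CPM (log2 fold change 1.995, SE 0.37, adjusted p = 7.43e-05). Of all genes, 32.9% were called in that comparison. In untreated G93A mice Ccn1 rose by a log2 fold change of 2.53 (SE 0.37, adjusted p = 2.67e-06), beside 33.7% of genes called, and Ccn5 went from 1.28 ± 0.772 to 22.5 ± 13.3 CPM, which is given without a test because the younger mice chose the gene. Neither Ccn2 nor Ccn3 was called with age in any genotype or treatment.

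In WT mice none of the members tested was called between the ages, while 24.9% of genes were called in untreated and 31.3% in treated WT mice. Ccn1 had a log2 fold change of -0.30 (95% interval -1.15 to 0.56) in untreated and 0.63 (-0.23 to 1.49) in treated WT mice.

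Whether the genotype difference grew with age was tested directly, but the summed caudal Hox genes also differed with age in WT mice. Untreated WT mice had 148 to 224 CPM at 95 and 229 to 278 CPM at 155 days. Treated WT mice had 162 to 236 and 258 to 320 CPM. In G93A mice the ages overlapped, at 101 to 194 and 59.3 to 202 CPM untreated. Treated G93A mice had 81.2 to 248 and 85.8 to 166 CPM. Growth with age and a shift of these genes cannot be told apart here. In untreated mice the log2 difference of Ccn1 between the genotypes was 2.83 larger at 155 than at 95 days (SE 0.55, adjusted p = 3.45e-04 by edgeR), beside 21.2% of genes called. Among treated mice it was 1.37 larger (SE 0.56, adjusted p = 0.0747), beside 23% of genes. Ccn5 in treated mice differed by 3.51 on the log2 scale (95% interval -0.52 to 7.54, adjusted p = 0.213).

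**Figure D2:**
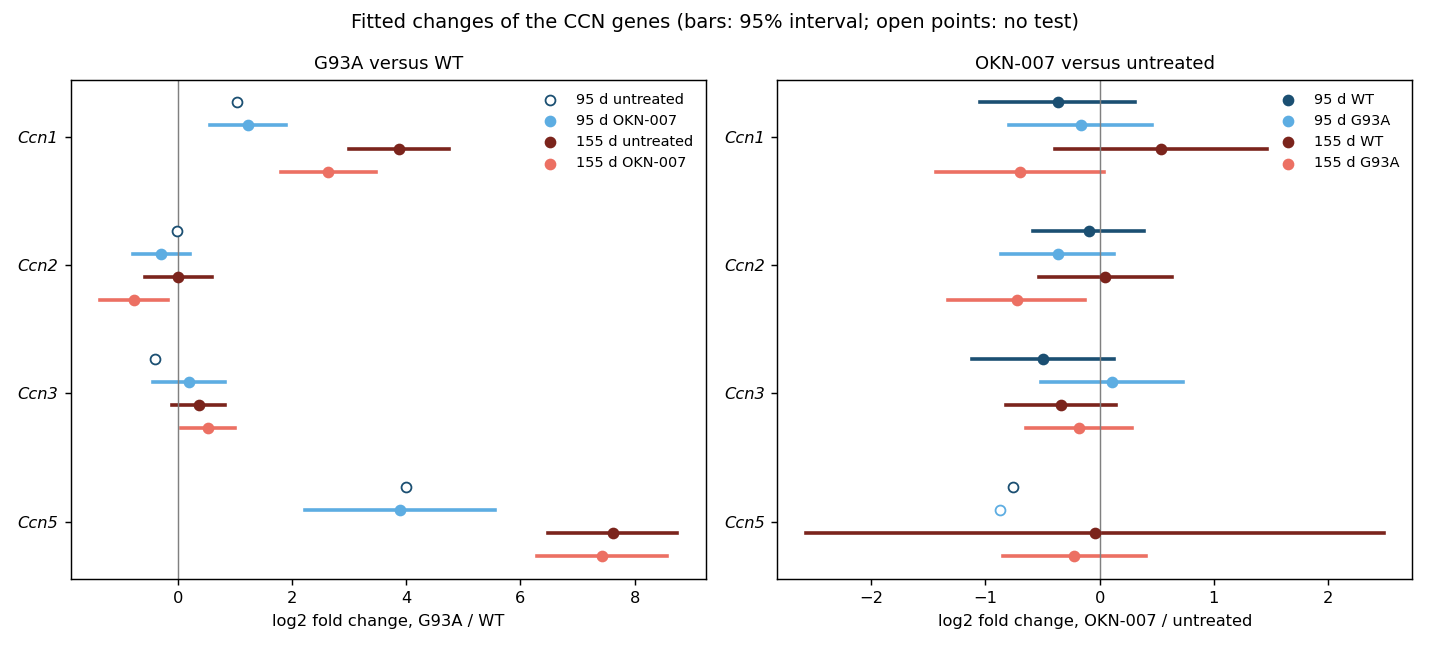
Fitted log2 fold changes of the CCN genes between G93A and WT (left) and between OKN-007 and untreated mice (right), with bars for the 95% interval; open points had no test. The genotype intervals of Ccn1 and Ccn5 at 155 days lie well above 0, and every treatment interval includes 0 except that of Ccn2 in G93A mice at 155 days, -1.33 to -0.12, whose adjusted p was 0.9996.

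OKN-007 changed none of the members by the test. In each of the 4 comparisons with untreated mice of the same genotype and age, 0% of genes were called. An unadjusted p under 0.05 was found for 4.04% of genes in G93A and 2.94% in WT mice at 155 days, and for 5.56% and 4.07% at 95 days. In G93A mice at 155 days the log2 fold change of Ccn1 was -0.70 (95% interval -1.43 to 0.040, unadjusted p = 0.0625), that of Ccn2 -0.73 (-1.33 to -0.12, unadjusted p = 0.0207), that of Ccn3 -0.18 (-0.64 to 0.29) and that of Ccn5 -0.22 (-0.85 to 0.41). All 4 had an adjusted p of 0.9996 by edgeR. Without untreated mouse 11 the log2 fold change was -0.17 for Ccn1 and -0.23 for Ccn2, and the direction turned for Ccn3 (0.16) and Ccn5 (0.24).

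In WT mice at 155 days the log2 fold changes with OKN-007 were 0.54 (95% interval -0.39 to 1.47) for Ccn1, 0.050 (-0.53 to 0.63) for Ccn2 and -0.34 (-0.82 to 0.14) for Ccn3, each with an adjusted p of 1 by edgeR. Without WT OKN-007 mouse 7 the value for Ccn1 was -0.058. Ccn5 could hardly be measured there, with 12 reads in each group and an interval of -2.57 to 2.49. Its log2 fold change was -0.041, and leaving out each mouse gave -1.13 to 0.60. At 95 days the G93A mice gave -0.17 (-0.79 to 0.46) for Ccn1, -0.37 (-0.86 to 0.13) for Ccn2 and 0.11 (-0.51 to 0.73) for Ccn3, with adjusted p between 0.837 and 0.960. Ccn5 had 75 reads in treated and 120 in untreated G93A mice at that age, which is given without a test. The interaction of genotype and treatment at 155 days was -1.23 for Ccn1 (SE 0.56, unadjusted p = 0.0419) and did not pass after adjustment (adjusted p = 0.9998), beside 0% of genes called and 2.34% with an unadjusted p under 0.05. Without WT OKN-007 mouse 7 this interaction was -0.64. At 95 days the interaction was 0.20 for Ccn1, -0.27 for Ccn2 and 0.61 for Ccn3 (adjusted p = 0.9999 each), beside 0% of genes called and 2.81% at an unadjusted p under 0.05.

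The order of the levels differed among the members. By group mean, Ccn1 was highest in untreated G93A mice at 155 days (46.5 ± 30.1 CPM, SD, n = 4), then in treated ones (28.4 ± 5.80 CPM), and these groups overlapped. Next came the untreated (8.07 ± 3.29 CPM) and treated G93A mice (7.29 ± 2.74 CPM) at 95 days, below and apart from both, and the WT groups followed at 3.10 to 4.797 CPM, overlapping their neighbours. Ccn5 had the same order of its G93A groups, with gaps between the ages and between G93A at 95 days and the WT groups at 0.0436 to 0.116 CPM. For Ccn2, between 5.33 and 9.51 CPM, and Ccn3, between 2.29 and 3.59 CPM, every group overlapped the next in order.

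Levels of different genes were compared per length, in RPKM, which is CPM divided by exon length in kilobases. In WT mice at 155 days Ccn2 was the highest member, at 3.16 RPKM untreated and 3.32 treated, ahead of Ccn1 (1.60 and 2.38), Ccn3 (0.999 and 0.800) and Ccn5 (0.0603 and 0.0579). In G93A mice of that age Ccn1 led with 23.0 RPKM untreated and 14.04 treated, followed by Ccn5 with 11.7 and 9.92, while Ccn2 had 3.10 and 1.86 and Ccn3 1.25 and 1.10. Ccn5 was thus the lowest member in WT and the one after Ccn1 in G93A cords. The 2 other genes of the family stayed low. Ccn4 had group means of 0.692 to 1.19 CPM and was not called in either genotype comparison at 155 days (adjusted p = 0.347 and 0.878), and Ccn6, with at most 11 reads per mouse, was below the filter.

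Receptors of CCN proteins were mostly higher in untreated G93A mice at 155 days. Of 13 receptors and partners tested, 10 were higher and 0 lower, with a median log2 fold change of 0.75 against 0.00015 over all genes tested, of which 21.3% were higher and 18.2% lower. Itgb2 and Itgam, the subunits of the leukocyte integrin that binds CCN1 and also microglial genes, had log2 fold changes of 3.64 (97.2 ± 24.3 against 8.01 ± 1.23 CPM, SD, n = 4) and 2.27 (73.4 ± 13.8 against 15.7 ± 2.06 CPM). Itgb5, which pairs with the alpha-v subunit, had 1.75 (SE 0.11, adjusted p = 6.92e-10 by edgeR). In treated mice 11 of 13 were higher and 0 lower, beside 23.3% of all genes higher and 18.2% lower. Not called in untreated mice were Itgb3, Lrp6 and Notch1, with adjusted p of 0.235, 0.703 and 0.0868 (named after their values were seen).

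Growth factors bound by CCN proteins were mixed. Of 8 tested among 9, 4 were higher and 1 lower in untreated G93A mice, with a median log2 fold change of 0.53. Igf1, a growth factor made by activated microglia among others, had 3.12 (37.2 ± 10.3 against 4.41 ± 1.0 CPM). Tgfb1 had 2.16 and Tgfb2 0.81. The lower one was Vegfa, the vascular growth factor that CCN2 binds, at -0.40 (adjusted p = 4.09e-04 by edgeR; named after its value was seen). Treated mice gave the same counts, 4 higher and 1 lower. Beside them, 21.3% of all genes were higher and 18.2% lower in untreated mice, and 23.3% and 18.2% in treated mice.

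Genes of the pathway that controls Ccn1 and Ccn2 were mostly higher too. Of 15 Hippo pathway and TEAD genes, 10 were higher and 0 lower in untreated G93A mice, with a median log2 fold change of 0.30, and 11 higher and 0 lower in treated mice. Of all genes, 21.3% were higher and 18.2% lower in untreated mice, and 23.3% higher and 18.2% lower in treated mice. Wwtr1, which encodes TAZ, had 1.10 (SE 0.10), Mob1a, an adaptor of the LATS kinases, 0.9998 (SE 0.079) and Yap1 0.91 (SE 0.099). Among 20 YAP target genes tested, with Ccn1 and Ccn2 left out, 11 were higher and 4 lower (median 0.55), and 11 higher and 5 lower in treated mice. Examples are Axl, a receptor kinase also used by phagocytes (1.80), Myof, a membrane repair gene (2.52), and Igfbp3 (1.61), and the 4 lower genes were Crim1, Arhgef17, Asap1 and Rbms3, at -0.34 to -0.44 (named after their values were seen). Ccn1 and Ccn2, both standard readouts of this pathway, had log2 fold changes of 3.87 and 0.014 in the same mice, and the difference between them was not tested.

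Of 12 TGF-beta response genes 8 were higher and 0 lower (median 0.54) in untreated mice, and 9 and 0 in treated mice. Beside each list here, 21.3% of all genes were higher and 18.2% lower in untreated mice, and 23.3% and 18.2% in treated mice. Among the higher TGF-beta response genes were Tagln, an actin-binding protein of contractile cells (2.23), and Tgfbi (1.24). Smad7, Smad6, Skil and Pmepa1, which feed back on the pathway, had log2 fold changes between -0.028 and 0.049 and were not called. The matricellular genes of other families gave 11 higher and 1 lower of 14 (median 0.80), and 10 and 1 in treated mice. Postn (periostin) had 3.76, Thbs2 2.47 and Spp1 (osteopontin) 2.31, while Sparcl1, an astrocyte gene, was the lower one at -0.27 (named after its value was seen). Of 15 immediate early genes, 7 were higher and 1 lower (median 0.46) in untreated mice and 7 and 1 in treated mice. Egr2 had 4.48, the injury factor Atf3 4.38 and Jun 0.91, whereas Fosb, Egr3, Nr4a1, Dusp1, Klf4, Ier3 and Btg2 were not called and Arc, a neuronal activity gene, was lower at -0.84 (named after their values were seen).

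**Figure D3:**
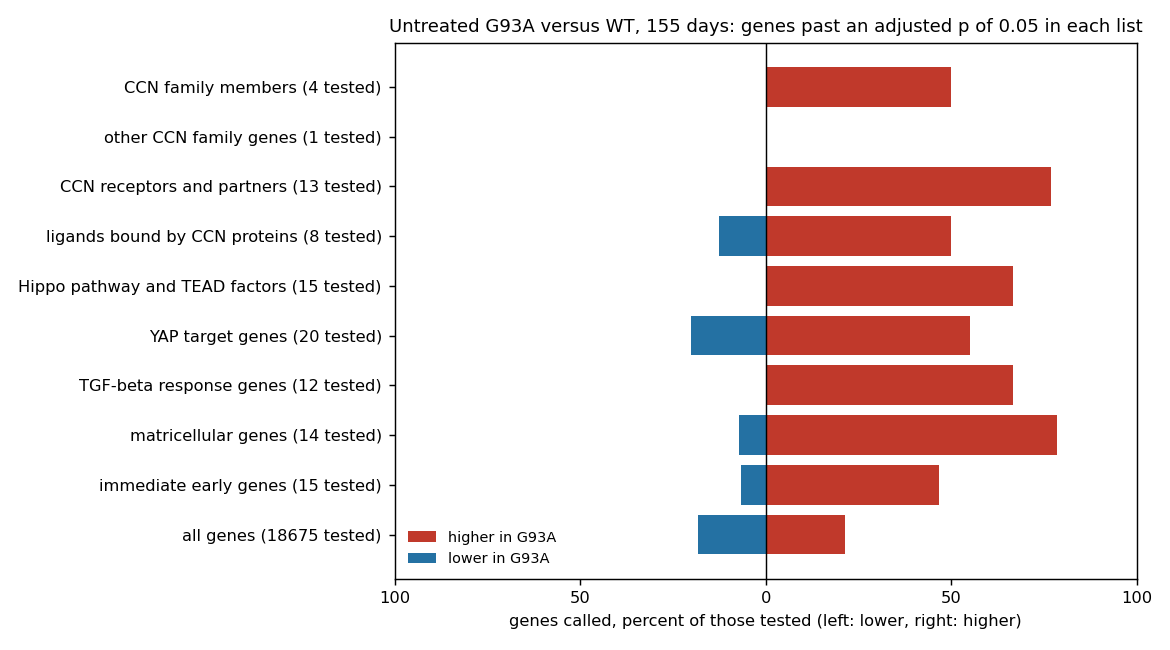
Percent of the tested genes of each list called higher (red, right) or lower (blue, left) in untreated G93A than in untreated WT mice at 155 days, at an adjusted p under 0.05, beside all 18675 genes. Receptors, Hippo genes and TGF-beta response genes have calls only in the higher direction, while all genes are called higher in 21.3% and lower in 18.2%.

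In the comparisons at 95 days and in all OKN-007 comparisons, 0 genes of these lists were called by edgeR, as were 0% of all genes.

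Markers of cell types that can express CCN genes moved in part with them. In untreated mice at 155 days 8 of 8 microglia markers were higher, with summed levels of 1346 to 2410 CPM in G93A against 317 to 384 CPM in WT, as were 6 of 8 astrocyte markers (13144 to 17123 against 4757 to 5244 CPM). Of 11 fibroblast and meningeal markers tested among 12, 4 were higher and 0 lower, with sums of 162 to 232 against 89.7 to 103 CPM. One gene, Fmod (fibromodulin), took most of that gap, at 80.5 ± 29.0 against 5.02 ± 0.791 CPM, and without it the sums were 97.5 to 134 against 85.6 to 97.3 CPM (left out after its value was seen). Of 8 smooth muscle and pericyte markers 5 were higher and 0 lower, with overlapping sums of 166 to 208 and 168 to 198 CPM, and of 8 endothelial markers 0 were called. Neuron markers were lower in 8 of 8 and motor neuron markers in 7 of 8. In this untreated comparison 21.3% of all genes were higher and 18.2% lower. No marker of these types was at 0 in every mouse of a group. Their part in the levels of Ccn1 and Ccn5 was not tested.

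In treated mice at 155 days, where Ccn2 was lower in G93A, 3 of 8 endothelial markers were lower and 0 higher (sums of 203 to 256 CPM in G93A and 224 to 282 in WT), and of 8 smooth muscle and pericyte markers 4 were higher and 2 lower, Myh11 and Rgs5, named after their values were seen (sums of 160.0 to 184 and 184 to 213 CPM). Microglia markers were higher in 8 of 8, astrocyte markers in 5 of 8 and fibroblast markers in 5 of 11. In this comparison 23.3% of all genes were higher and 18.2% lower. Whether these cells account for the Ccn2 values was not tested. Of markers of tissue around the cord, 0 of 7 Schwann cell and 0 of 5 erythroid genes tested were called in untreated mice. Of 6 skeletal muscle genes 1 was higher and 1 lower, of 7 cartilage and bone genes 3 were higher and 1 lower, and of 6 ependymal markers 2 were higher, beside 21.3% of all genes higher and 18.2% lower.

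Ccn3 in the untreated WT mice at 95 days depended on mouse 3, whose Schwann cell markers summed to 1374 CPM and whose fibroblast markers to 254 CPM, against 92.7 to 102 CPM in the group's others. It had 6.53 CPM of Ccn3 and 1.88 CPM of Ccn4, the highest of the 32 mice for both. Without this mouse the log2 fold change of Ccn3 of G93A against WT in untreated mice of that age went from -0.40 to 0.059.

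**Figure D4:**
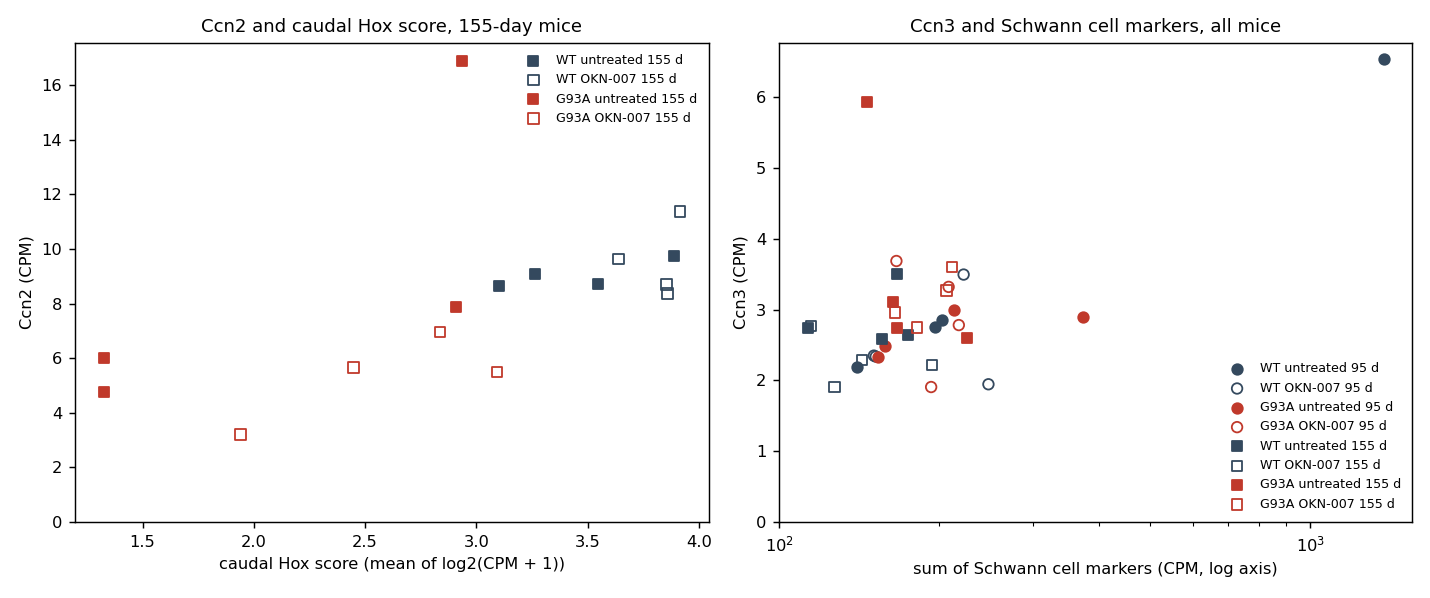
Left, Ccn2 in CPM against the caudal Hox score in the 16 mice at 155 days; right, Ccn3 in CPM against the summed CPM of 8 Schwann cell markers (log axis) in all 32 mice, 1 point per mouse, with red for G93A and open points for OKN-007. G93A mice sit at lower Hox scores, and 1 untreated WT mouse sits alone at 1374 CPM of Schwann cell markers and 6.53 CPM of Ccn3.

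The genes whose levels followed each member most closely were found by Pearson's r of log2 CPM over the 32 mice, a description in which the genotype and age differences are shared. For Ccn5 these were Dhrs1 (0.965), the reactive astrocyte gene Serpina3n (0.963) and Tagln2 (0.959), and for Ccn1 Atf3 (0.945), Tagap (0.938) and Tnfrsf12a (0.936). For Ccn2 they were Slc25a5 (0.831), Ucp3 (0.831) and Phactr3 (0.830). For Ccn3 they were Fam198b (0.687), the collagen gene Col1a2 (0.670) and Matn2 (0.653), and the mouse rich in Schwann cell markers enters these values.

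After group means were subtracted, which leaves the spread among mice of a group, other genes led. Ccn1 was most like Zfp36 (0.735) and Nr4a1 (0.715), both immediate early genes, and Aldh3b1 (0.705). Ccn2 was most like Asb8 (0.845), Cavin2 (0.836), a gene of caveolae, and Tsc22d3 (0.828), a glucocorticoid-induced gene. Ccn3 was most like Art3 (0.738), Fam198b (0.703) and Matn2 (0.702), and Ccn5 most like Eif4ebp1 (0.822), Ly6e (0.753) and Usp43 (0.736). Between pairs of the 4 members these values were 0.117 to 0.333, all over 32 mice that share their libraries with both genes.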

How the data were processed

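Spinal cord RNA of 32 mice was sequenced from stranded mRNA libraries (TruSeq, Illumina). The authors deposited raw read counts per gene, not normalized. The study's methods name Trimmomatic, STAR, HTSeq and GENCODE M10 on GRCm38, whereas the submitters' processing notes name STAR, featureCounts and GRCm39. Of the gene IDs, 1306 are numbered above the highest of GENCODE M21, so the counter and release are uncertain. Symbols came from GENCODE M21 for 41203 of 42524 IDs, and coordinates are its GRCm38 positions. Every column belonged to a mouse (0 unmapped), and the smallest gene sum was 2 counts.

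Here, counts were analysed in R 4.3.3 with edgeR 4.0.16 and limma 3.58.1 (filterByExpr, TMM, estimateDisp, glmQLFit, glmQLFTest), in fits of the 16 mice of an age or, between ages, of all 32, with Benjamini-Hochberg adjustment over all genes tested. Standard errors derive from the quasi-likelihood F statistic. Rate ratios carry exact binomial 95% intervals on summed counts. DESeq2 1.42.0 and other settings were alternatives. Levels rest on 19701722 to 30138257 counts per mouse. Libraries of a group differed by at least 2.74 in chi-square per gene, so none was taken as a duplicate. The procedure was tested on simulated counts with a common spread and with changes placed in well-counted genes. That setting does not cover the few reads of Ccn5 in WT mice.

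The members, lists and tests were chosen with earlier results of these data known. Ccn5 was not tested in comparisons that include untreated mice at 95 days, nor any member between the genotypes there. Named genes are the members, Ccn4 and Ccn6, the 3 genes of each list with the smallest adjusted p in the untreated comparison at 155 days, and the 3 genes most like each member by each measure; others are marked where named, and 1 gene that the rule names is not reported here. Mice of the 2 ages share sample numbers but are different animals, and the correlation of their deviations from group means ranged from -0.22 to 0.13 over 16 pairs, so numbers were not used as pairs.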

Additional observations from a re-analysis of the deposited data

Results flagged for a closer look

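In groups of 4 mice, 3 of the 32 groups examined (4 genes in 8 groups) held a mouse far from the others by Dixon's criterion at the 95% level, where chance gives about 1.6. Ccn3 in untreated WT mouse 3 at 95 days was at 6.53 CPM, with 2.86 CPM the nearest. Ccn3 in untreated G93A mouse 11 at 155 days was at 5.93 CPM, with 3.11 CPM the nearest. Ccn5 in OKN-007 WT mouse 6 at 155 days was at 0.296 CPM, with 0.0749 CPM the nearest, from 8 reads.

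The difference of Ccn1 between untreated G93A and WT mice was larger at 155 than at 95 days by 2.83 on the log2 scale (adjusted p = 3.45e-04 by edgeR), with a range of 2.31 to 3.06 when each mouse was left out. Summed caudal Hox genes of untreated WT mice also differed between these ages.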

How the results depend on the processing

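At 155 days Ccn1 remained called between the genotypes in every fit. Ccn5 did so in each fit that tested it, but it passed the filter on low counts through the G93A mice alone. Its calls, and its place in the counts of members called below, are therefore description only. Leaving out each mouse gave log2 fold changes of 3.35 to 4.10 for Ccn1 and 7.15 to 8.25 for Ccn5 in untreated mice, and up to 3.24 and 7.14 to 8.53 in treated mice. With at least 10 counts in every mouse, Ccn5 was not tested, and the members called went from 2 to 1 in untreated mice and from 2 to 1 between the ages in treated G93A mice. Between treated G93A and WT mice at 95 days, 0 members were called, against 2 with no filter on low counts (Ccn1 and Ccn5), 1 with DESeq2 and 1 with the likelihood ratio test (Ccn5 in both). For the growth of the genotype difference with age in treated mice, 0 were called, against 1 at an adjusted p under 0.10 (Ccn1), 1 with DESeq2 (Ccn5), 2 with the likelihood ratio test and 0 to 1 when each mouse was left out. The 1 was Ccn1 without WT OKN-007 mouse 7 at 155 days (log2 difference 1.97, adjusted p = 0.00795 by edgeR). Ccn2 in treated mice at 155 days reversed to 0.049 with the Hox score as covariate and missed the threshold with robust dispersions (adjusted p = 0.0601). Ccn3 in treated mice at 155 days passed with only the compared groups (adjusted p = 0.0194). The causes were not tested. The share of all genes called was taken for the main fits only. The counts of members under alternative settings therefore have no background beside them. By rank correlation in place of Pearson's r, Atf3 stayed the gene most like Ccn1, while Ctsb led for Ccn5, Ucp3 for Ccn2 and Gpx3 for Ccn3.

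Mice of the 2 ages share numbers only, with 2 of 16 pairs over a correlation of 0.1. The sample number as a replicate block called 1 member for the growth of the difference in treated mice (Ccn1, 1.57, adjusted p = 0.0241 by edgeR) and changed no other count of members called. Numbers do not recur within an age, so the block was fitted for comparisons between the ages only.

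Depth limits Ccn5 in WT mice, where no mouse had more than 8 reads.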
